A study of Mus musculus with 199 samples.

Results

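KP1 is a mouse small-cell lung cancer line with the genotype Rb1-/-Trp53-/-, and its pool-and-split control libraries were compared across 3 growth environments. The libraries were chosen by their labels alone, as the KP1 samples named pool-and-split controls, and they numbered 79 of the 199 libraries of the series. Spheroids grown in culture gave 20 libraries, colonies in the livers of nude mice gave 35, and colonies in the livers of F1 mice gave 24. In such a control, material from many captured cells is combined and divided into portions of 10 cells, so that portions of 1 mixture differ only through the method. The nude hosts were immunocompromised and the F1 hosts immunocompetent, and since they differ in strain as well as in immunity the effects of strain and immunity cannot be told apart. All groups carry both deletions, and the labels do not say how many animals, cultures or pools stand behind a group. Every p-value below therefore speaks only for the spread between these libraries. That spread may be technical or may hold differences between pools, and it does not stand for animals or cultures.

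Small-cell lung cancer is a neuroendocrine tumour that grows fast after loss of the retinoblastoma protein and p53. Its cells run a secretory programme under transcription factors such as Insm1, with chromogranins, neuropeptides such as the calcitonin gene product, and the enzymes that process them. The liver is a frequent site of its metastases. A laser cut through a liver colony can take along transcripts of hepatocytes, which secrete albumin, complement and haptoglobin, and of red blood cells, which are full of globin mRNA. In such bulk libraries, fewer cells of a type and less RNA per cell cannot be told apart.

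The deleted genes were read first. Rb1, the retinoblastoma gene, ranged in spheroid pools up to 111 CPM (counts per 1e6 gene counts of the library), with a median of 24.3 CPM. In nude liver pools its median was 1.55 CPM and its highest value 101 CPM, and in F1 liver pools these were 0.497 and 107 CPM. Trp53 had medians of 1.24, 1.68 and 2.34 CPM in spheroid, nude and F1 pools and highest values of 13.9, 60.8 and 15.3 CPM. The groups overlapped for both genes, and neither passed the test in a comparison where it was tested. Counts per gene do not show which exons the reads came from, so they say nothing about the deletions themselves, and liver colonies also hold host cells with intact genes.

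Libraries from the liver had a larger share of counts from the added ERCC spike-in transcripts, fewer genes detected and a smaller mitochondrial share than spheroid libraries. Gene counts per library ran from 3662388 to 5830537 in spheroid pools, from 956718 to 4004822 in nude liver pools and from 1977366 to 5410263 in F1 liver pools. ERCC transcripts took 0.419% ± 0.659 of counts in spheroid pools (mean ± SD, n = 20), 7.29% ± 6.52 in nude pools (n = 35) and 12.4% ± 5.24 in F1 pools (n = 24). Spheroid pools 16 and 18 had 0 ERCC counts, and whether every library received the same amount of spike-in was not tested. After all libraries were thinned to the lowest gene total, 8835 ± 837 genes were detected per spheroid pool, 7356 ± 765 per nude pool and 6288 ± 1271 per F1 pool. The adjusted p was 3.43e-05 for each liver group against spheroids and 0.0003 for F1 against nude (2-sided permutation tests, adjusted over 12 tests, 2e-05 being the smallest raw p that 100000 resamples can give). Mitochondrially encoded genes took 4.86% ± 1.02 of gene counts in spheroid pools, 1.45% ± 0.533 in nude pools and 1.41% ± 0.764 in F1 pools, with no difference detected between the livers (adjusted p = 0.818, permutation test). The 50 most abundant genes took 26.8% ± 3.42, 31.1% ± 3.54 and 29.6% ± 4.33 of gene counts, and the excess of each liver group over spheroids passed the permutation test (adjusted p = 3.43e-05 for nude and 0.0263 for F1). Against spheroid pools 9 to 14 alone it was 0.0975 percentage points for nude (adjusted p = 0.976) and -1.37 points for F1 (adjusted p = 0.529, permutation tests), and neither passed.

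**Figure D1:**
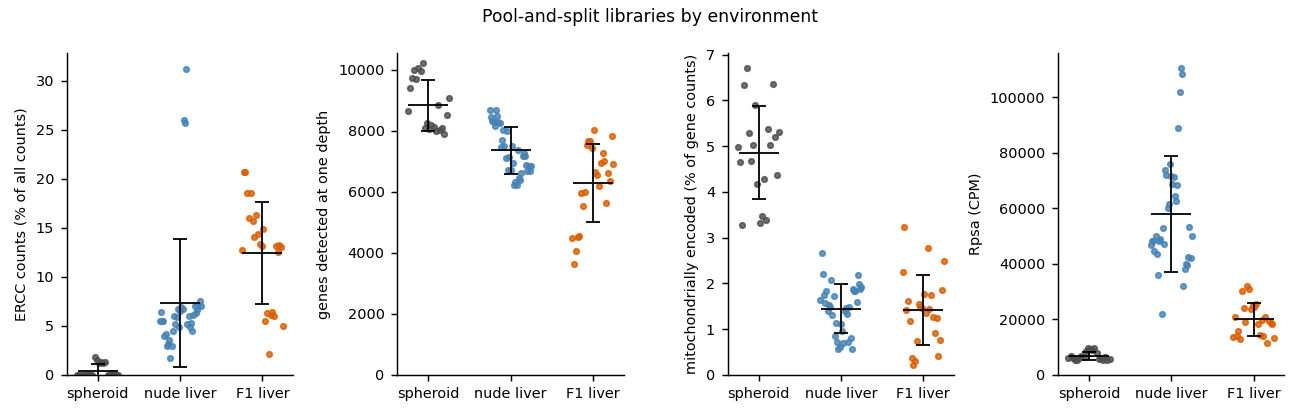
Each point is 1 pool library and the black marks give mean and SD for 20 spheroid, 35 nude liver and 24 F1 liver pools: ERCC share of all counts in percent, genes detected after thinning to 956718 gene counts, mitochondrially encoded share of gene counts in percent, and Rpsa in CPM, all on linear axes. Spheroid pools have the lowest ERCC shares, the most genes and the highest mitochondrial shares, and all nude and F1 values of Rpsa lie above the highest spheroid value of 9573 CPM.

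Pools of 1 environment were not uniform. Libraries with neighbouring numbers in the labels resembled each other: after the libraries of each environment were divided into 3 profile groups by hierarchical clustering, 15 of 19 neighbouring spheroid pairs, 28 of 34 nude pairs and 18 of 23 F1 pairs fell in the same profile group (78.9%, 82.4% and 78.3%, where 48.9%, 45.0% and 37.3% of all pairs did). Spheroid pools 9 to 14 carried 1.2% to 1.8% ERCC counts where the other 14 carried under 0.1%. Nude pools 21, 22 and 25 stood apart with ERCC shares of 25.7% to 31.2%. F1 pools 1 to 5 and 21 formed the profile group with the lowest mean number of genes (3632 to 5624), and F1 pools 6, 7, 8, 22 and 23 had the most beta-globin transcript. The median Spearman correlation across genes between 2 pools was 0.806 for spheroids, 0.689 for nude and 0.635 for F1. The labels do not say whether a run of numbers was 1 pool. Counts of called genes are therefore also given without these libraries.

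Host transcripts were found in the liver pools and hardly at all in the spheroids. The 4 adult globin genes Hba-a1, Hba-a2, Hbb-bs and Hbb-bt together were at 0 in all 20 spheroid pools, ran from 171 to 9356 CPM with a median of 1259 CPM in nude pools, and ran from 1.01 to 20604 CPM with a median of 334 CPM in F1 pools. No spheroid pool reached the lowest colony pool. A list of 27 hepatocyte genes (Rbp4 left out, because spheroid pools held a median of 165 CPM of it) summed to a median of 0.561 CPM in spheroids, with a highest value of 62.6 CPM. In nude pools the same sum ran from 316 to 4172 CPM with a median of 1584 CPM, above every spheroid pool, and in F1 pools from 0 to 1122 CPM with a median of 235 CPM, overlapping both.

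In nude liver pools, C3, the central complement protein, ran from 8.44 through a median of 195 to 923 CPM, and spheroid pools held no count of it. The floor of 3 counts over all spheroid pools is 0.0321 CPM, and C3 over all nude pools was 9538-fold above it. Amplified reads are not independent, so folds on this floor are not strict lower bounds. Haptoglobin (Hp, the haemoglobin scavenger) was 6255-fold above the same floor, Ahsg (fetuin-A, a liver-secreted plasma protein) 3357-fold and Apoa1 (the main protein of high-density lipoprotein) 2544-fold. Albumin (Alb) had a median of 170 CPM and a highest value of 3819 CPM in nude pools, in pool 22, the next being 1486 CPM, and a single spheroid pool held it, at 1.06 CPM. Hemopexin (Hpx, the haem carrier) was found in 34 of 35 nude pools, with a median of 279 CPM. Of the 28 hepatocyte genes listed, 10 passed the filter on low counts and 9 of these were higher in nude pools than in spheroids, where 25.6% of all tested genes were called. Genes that reached the test through the colony libraries alone had to differ, so this count describes the list and supports nothing.

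The alpha-globins Hba-a1 and Hba-a2 were present in every nude pool, at medians of 320 and 373 CPM, and were at least 19316-fold and 23195-fold higher than in spheroids. Hbb-bs, a beta-globin, ran from 1.91 to 2916 CPM in nude pools, with a median of 475 CPM, at least 19661-fold above spheroids. In F1 pools Hbb-bs was uneven. F1 pools 6, 7, 8, 22 and 23 held 5772 to 10040 CPM, the other 19 held at most 548 CPM, and 5 of those held none. Albumin was found in 13 of 24 F1 pools, and C3 was at or under 0.332 CPM in pools 1 to 8, 21 and 23 and at 16.3 to 489 CPM in the other 14. Of the 5 globin-rich F1 libraries, pool 22 alone held more than a trace of C3.

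**Figure D2:**
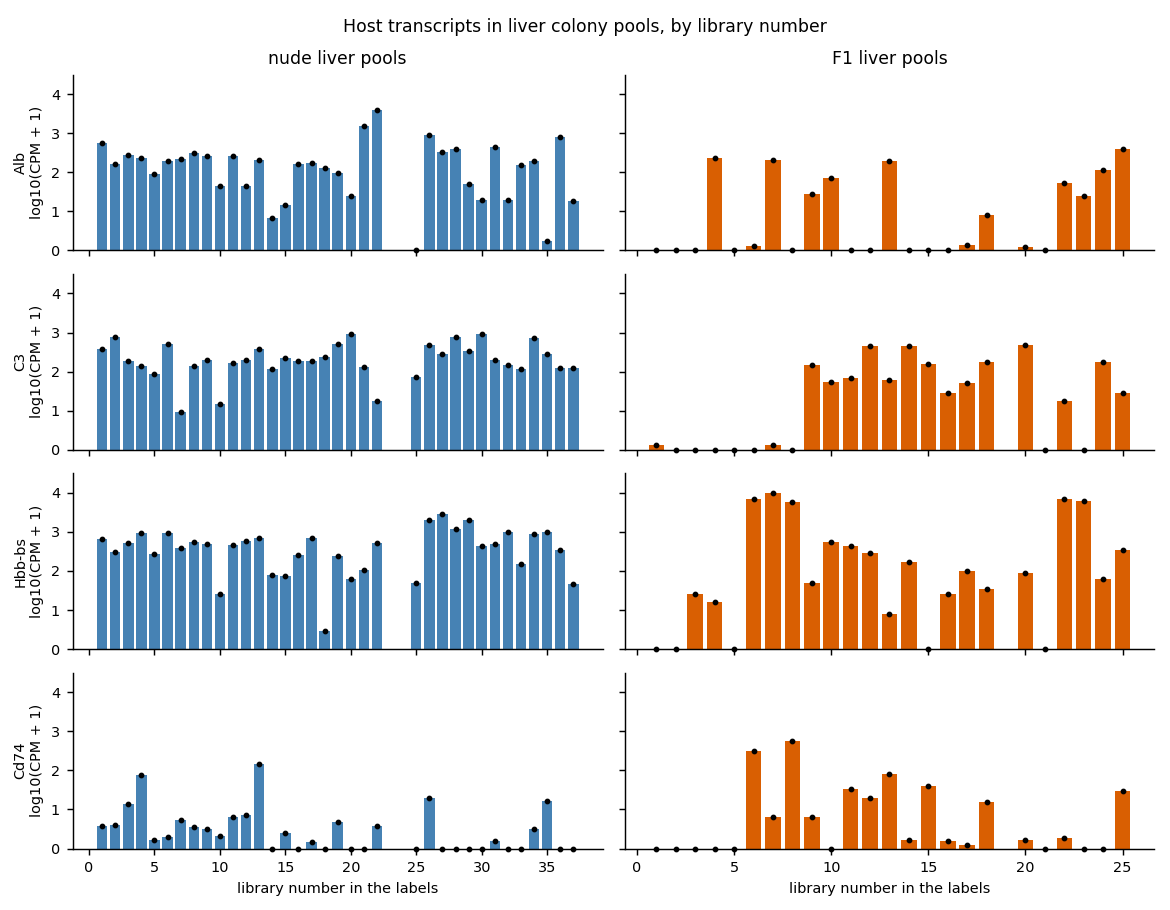
Bars with points give log10(CPM + 1) of albumin (Alb), complement C3, beta-globin (Hbb-bs) and the MHC class II invariant chain (Cd74) in each nude liver pool (left) and F1 liver pool (right), placed by the library number in the labels; a point at 0 is a library with no count, and a number without a point has no library. C3 is present in all 35 nude pools, whereas F1 pools 2 to 6, 8, 21 and 23 have none, and F1 pools 6, 7, 8, 22 and 23 hold 5772 to 10040 CPM of Hbb-bs.

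Markers of immune cells were sparse in both livers. Cd74, the invariant chain of MHC class II, was at 0 in all spheroid pools, was found in 21 of 35 nude pools (highest value 146 CPM) and in 15 of 24 F1 pools (highest value 568 CPM). Lyz2, a lysozyme of macrophages and neutrophils, was found in 8 nude and 6 F1 pools, and the complement component C1qa, made by tissue macrophages, in 14 and 4. The T cell receptor component Cd3e was found in 1 nude pool and in no F1 pool. Cd8b1, the CD8 beta chain, was nevertheless found in 34 of 35 nude and 21 of 24 F1 pools, at medians of 5.26 and 4.32 CPM. The B cell surface gene Ms4a1 was found in 34 nude and 22 F1 pools, whereas Cd79b, a part of the B cell receptor, was at 0 in all of them. Likewise the endothelial gene Pecam1 was found in every colony pool, and Cdh5, the junction protein of the same cells, in no nude and 2 F1 pools. Spheroid pools also held counts of Cd8b1, Ms4a1 and Pecam1. For these genes 33, 21 and 34 of the 35 nude pools lay above every spheroid pool. No gene of the neutrophil and platelet list entered a test. Of the whole macrophage and MHC class II list of 20 genes, the summed level ran from 49.3 to 659 CPM in spheroids, from 106 to 2488 CPM in nude pools and from 0.916 to 3245 CPM in F1 pools, and 16, 1 and 5 of its genes had no count in the group.

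Between nude liver and spheroid pools, 2054 of 8010 genes tested passed an adjusted p of 0.05 (25.6%; edgeR quasi-likelihood test with Benjamini-Hochberg adjustment), 1323 higher and 731 lower in nude liver. Over all tested genes 16.5% were higher and 9.13% lower. With only spheroid pools 9 to 14 as the reference 776 were called, with only the other 14 spheroid pools 1855, and 2060 were called without nude pools 21, 22 and 25. The median log2 fold change over all tested genes was 0.16. Fitted changes use TMM scaling between libraries and lie a median of 0.24 above the log2 ratio of the mean CPM values, and by 0.58 and 0.40 in the comparisons of F1 with spheroid and with nude pools. With RLE scaling the nude split was 1168 higher and 995 lower, with a median of -0.06. Limma-voom gave 1286 higher and 3492 lower (median log2 fold change -1.09), and the replicate number as a block 898 higher and 2029 lower (median log2 fold change -0.86.) Which genes were called, and the split into higher and lower, therefore depended on the scaling and the model. Genes called both in the main fit and in these settings all kept their direction. They numbered 1889 with RLE scaling, 1813 with limma-voom and 1446 with the block.

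Rpsa, a protein of the small ribosomal subunit and laminin receptor, had the smallest adjusted p in nude pools. It ran from 5234 through a median of 6230 to 9573 CPM in spheroids and from 22020 through 50140 to 110643 CPM in nude pools, with no overlap (log2 fold change 3.30 ± 0.18 SE, adjusted p = 5.06e-23). In F1 pools it ran from 11269 through 19076 to 32168 CPM, again above every spheroid pool. Rps15, another small-subunit protein, ran from 1828 through 3678 to 5859 CPM in spheroids and from 8830 through 13414 to 33622 CPM in nude pools, also without overlap. Both genes have many processed copies in the genome, and the authors' estimated counts divide reads among copies, so these levels are uncertain. Fcgr2b, the inhibitory Fc gamma receptor, was higher in every nude pool (10.3 to 940 CPM) than in any spheroid pool (at most 2.34 CPM). Zfp488, a zinc-finger regulator of transcription, ran from 142 to 7387 CPM in nude pools and from 8.87 to 138 CPM in spheroids. In all, 45 of the tested genes (0.562%) had no overlap between the 2 groups, 41 higher and 4 lower in nude pools.

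Lower in nude pools were genes of several kinds. Nov, a matricellular growth regulator, ran from 167 through 447 to 783 CPM in spheroids and from 0 through 4.48 to 103 CPM in nude pools, with no overlap (log2 fold change -4.98 ± 0.56, adjusted p = 1.11e-10). Id3, an inhibitor of helix-loop-helix transcription factors, was found in all 20 spheroid pools at a median of 126 CPM and in 4 of 35 nude pools, at no more than 17.1 CPM. Scd2, a fatty acid desaturase, fell from a median of 1070 to 65.9 CPM, and nude pool 20, at 970 CPM, was the only 1 to reach the spheroid range. Chac1, an enzyme that degrades glutathione and is induced by cellular stress, was found in 18 of 20 spheroid and 3 of 35 nude pools. The peptidyl-prolyl isomerase Ppia fell from 3474 to 669 CPM in median and the histone variant H2afz from 3669 to 1025 CPM.

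Neuroendocrine genes that changed in nude pools were all lower. Of the list of 20, 15 were tested, 5 fell and none rose, where 9.13% of all tested genes fell, with a median log2 fold change of -0.79 against 0.16 over all genes. Calca, which encodes calcitonin and its related neuropeptide, had the largest change of these. It ran from 10.5 through 126 to 392 CPM in spheroids and from 0 through 0.251 to 31.5 CPM in nude pools (log2 fold change -5.60 ± 0.74, adjusted p = 1.01e-08), so that 2 nude pools reached the lowest spheroid pools. Neurod1, a neurogenic transcription factor, Resp18, a secretory granule protein, and Ddc, which makes dopamine and serotonin, also fell (log2 fold changes -2.22, -1.79 and -0.79), but stayed called under 8 of 11, 8 of 14 and 5 of 14 alternatives that tested them. Chga, the granule protein chromogranin A, at -0.70 ± 0.37, and Insm1, at -0.60 ± 0.80, did not pass. Spheroid pools 9 to 14 held 10.5 to 45.9 CPM of Calca where the others held 77.9 to 392 CPM, and with only those 6 spheroid pools in the fit 2 neuroendocrine genes fell, while RLE scaling gave 9.

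Mitochondrially encoded genes that changed in nude pools were all lower. Of 12 tested mitochondrially encoded genes, 11 fell and none rose, with a median log2 fold change of -1.65, and with only spheroid pools 9 to 14 as the reference 4 fell, and with the number of genes detected as a covariate 6. mt-Atp6, a subunit of ATP synthase, ran from 3939 through 10034 to 13542 CPM in spheroids and from 246 through 2303 to 5510 CPM in nude pools. Of 22 nuclear genes of the respiratory chain, 11 fell and 2 rose, where 9.13% of all tested genes fell and 16.5% rose, and their median was -1.04 against 0.16, while 9 did not pass. Ndufs5, of complex I, fell from a median of 6809 to 1487 CPM (log2 fold change -1.98 ± 0.21, adjusted p = 1.97e-11), and the 2 that rose were Ndufv1, of the same complex (1.06 ± 0.36), and Ndufa2 (0.87 ± 0.19). Ribosomal protein genes were mixed, with 7 of 21 higher and 3 lower. Under RLE scaling 5 rose and 6 fell, so this list has no single direction.

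Genes of cell division went both ways in nude pools. Of 19 tested mitosis genes 5 fell and 1 rose, and of 22 genes of DNA replication 5 fell and 2 rose, where 9.13% of all tested genes fell and 16.5% rose. Cdc20, the activator of the anaphase-promoting complex, fell from a median of 236 to 15.8 CPM (log2 fold change -2.26 ± 0.57), Rrm1, a subunit of ribonucleotide reductase, from 478 to 23.6 CPM (-2.36 ± 0.46), and Pcna, the sliding clamp of DNA polymerase, from 383 to 37.1 CPM (-2.12 ± 0.40). Kif11, a spindle motor, was higher (2.22 ± 0.61), as was the DNA ligase Lig1 (1.54 ± 0.31). Mki67, the usual proliferation marker, had medians of 887 and 664 CPM and was not called (-0.06, adjusted p = 0.923). With only spheroid pools 9 to 14 as the reference, no mitosis gene and 1 replication gene fell.

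Cholesterol and fatty acid synthesis showed 6 of 17 tested genes lower and 2 higher, where 9.13% of all tested genes were lower and 16.5% higher. Among the lower were Fdps, which makes farnesyl diphosphate (log2 fold change -2.26 ± 0.57), and Hmgcs1, at the entry of the pathway (-2.80 ± 0.76). Fasn, fatty acid synthase, was among the higher (1.06 ± 0.22). Of the tested cytoskeleton genes 6 of 17 fell, among them the neuronal tubulin Tuba1a (-1.72 ± 0.27), and 3 rose, among them beta-actin, Actb (1.76 ± 0.23). Of 18 tested chaperone and stress genes 3 rose, or about the 16.5% of all tested genes, and 5 fell. Both main cytosolic Hsp90 chaperones were higher, Hsp90ab1 from a median of 1739 to 5579 CPM (1.95 ± 0.17) and Hsp90aa1 from 1139 to 2989 CPM (1.57 ± 0.19). Trib3 (-2.88 ± 0.89) and Asns (-1.67 ± 0.46), both induced by amino acid shortage, fell. Of 14 tested genes of glycolysis and hypoxia 4 rose and 3 fell, beside the same 16.5% and 9.13% over all tested genes. Among them Tpi1 (1.61 ± 0.18) and Ldha (1.11 ± 0.27) rose and Aldoa (-1.12 ± 0.40) fell, a call kept under 7 of 14 alternatives against 13 of 14 for the other two.

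Epithelial and surface genes moved singly. Krt8, a simple-epithelium keratin, ran from 0 through 3.14 to 130 CPM in spheroids and from 0 through 164 to 1468 CPM in nude pools (log2 fold change 4.73 ± 0.87, adjusted p = 1.63e-05). Wfdc2, a secreted protein of airway epithelium, rose from a median of 217 to 1066 CPM (2.10 ± 0.29), and the airway and liver factor Foxa2 fell (-2.12 ± 0.66). Of 5 tested mesenchymal and matrix genes 4 rose, among them fibronectin, Fn1 (2.71 ± 0.63), and Sparc, of which nude pool 25 alone held 61.5% of the summed CPM. The host lists moved in the same comparison, as given above, and their part in these differences was not tested. In the class I list 4 of 11 tested genes rose, where 16.5% of all tested genes did. These included the non-classical genes H2-Q4 (4.91 ± 0.60) and H2-T23 (3.45 ± 0.85), near-identical relatives whose reads are hard to assign, while the classical H2-K1 was not called (-0.14, adjusted p = 0.914). None of 5 tested interferon-stimulated genes was called.

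**Figure D3:**
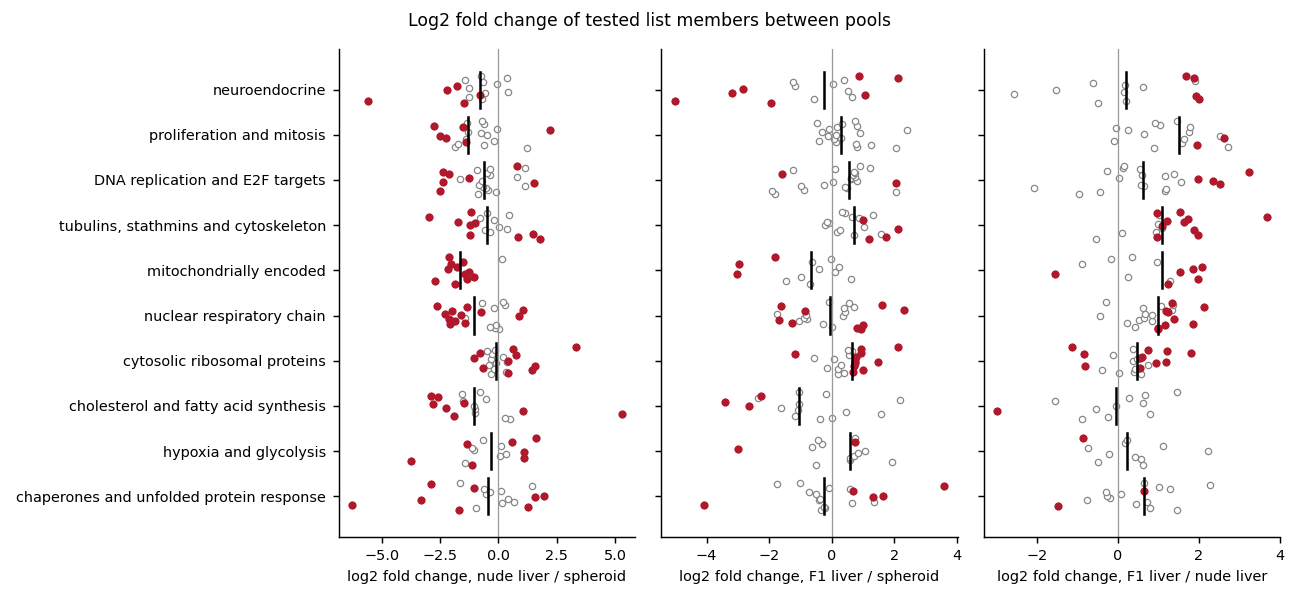
Each circle is 1 tested gene of the list named at the left, at its log2 fold change between 2 environments on a linear axis; filled circles passed an adjusted p of 0.05 (edgeR quasi-likelihood test) and the black bar is the list's median. Mitochondrially encoded genes lie left of 0 in nude liver against spheroid (11 of 12 lower), and most cytoskeleton genes lie right of 0 in F1 against nude liver (10 of 16 higher).

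Between F1 liver and spheroid pools, 840 of 7249 genes tested were called (11.6%), 648 higher and 192 lower in F1 liver, and the median log2 fold change was 0.46. Limma-voom gave 393 higher and 2946 lower (median log2 fold change -1.45), and the replicate number as a block 219 higher and 1618 lower (median log2 fold change -1.64), so the split has no firm direction. With F1 pools of under 200 CPM of the pseudogene Rpl19-ps11 it was 872 higher and 862 lower, with a median of 0.0057. With only spheroid pools 9 to 14 as the reference 22 were called, 11 higher and 11 lower, and with only the other 14 spheroid pools 637. Without F1 pools 1 to 5 and 21 there were 926 calls, and without F1 pools 6, 7, 8, 22 and 23 there were 931. Only 6 genes (0.0828%) had no overlap between the groups, higher for Rpsa and Gm9964 and lower for Nov, Dnajc12, Tmem184c and Arl6ip6. These 6 were singled out after their values were seen. Hepatocyte genes hardly entered this test, as 1 of 28 passed the filter and was not called. Of 4 tested erythrocyte genes 3 were higher, and without F1 pools 6, 7, 8, 22 and 23 none was called. Globins passed the filter through F1 pools alone and so had to be higher, and this count supports nothing.

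Stmn1, stathmin, a tubulin-binding protein of dividing and neuroendocrine cells, ran from 1536 through 3905 to 6189 CPM in spheroids and from 3081 through 8152 to 20403 CPM in F1 pools (log2 fold change 2.12 ± 0.22, adjusted p = 4.56e-10). Of the 24 F1 pools 15 lay above every spheroid pool, and the highest was pool 5. Actg1, cytoplasmic gamma-actin, ran from 1456 through 1957 to 3163 CPM in spheroids and from 1698 through 4577 to 7569 CPM in F1 pools (1.72 ± 0.16, adjusted p = 1.47e-11), and 19 of the 24 F1 pools lay above every spheroid pool. Hsp90ab1 rose from a median of 1739 to 3612 CPM (1.63 ± 0.19), Zfp488 from 43.3 to 420 CPM (4.20 ± 0.49) and Noct, the nocturnin phosphatase of the circadian system, from 1666 to 3500 CPM (1.80 ± 0.21). Of 21 ribosomal protein genes 10 were higher, where 8.94% of all tested genes were, and 1, Rps27, was lower, with a median of 0.64 against 0.46 over all genes, and with only spheroid pools 9 to 14 as the reference 1 rose.

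Nov was at 0 in the median F1 pool and at most 40.7 CPM, below the lowest spheroid pool (log2 fold change -5.63). Dnajc12, a co-chaperone of the aromatic amino acid hydroxylases, was found in all 20 spheroid pools at a median of 27.5 CPM and in 1 F1 pool, at 0.285 CPM. It was also nearly absent from nude pools, except for pool 18 at 421 CPM. Nsdhl, an enzyme of cholesterol synthesis, was found in 17 spheroid and 2 F1 pools. In the list of sterol and lipid synthesis 3 of 15 tested genes passed, all lower, where 2.65% of all tested genes were lower, among them Scd2 (-2.27 ± 0.50). Sftpc, surfactant protein C of alveolar type II cells, was found in 19 of 20 spheroid pools at a median of 64.6 CPM and in 3 of 24 F1 pools, at no more than 5.41 CPM. In nude pools Sftpc was found in 14 of 35 and was not called (-1.70 ± 0.89, adjusted p = 0.164).

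The neuroendocrine list split in F1 pools, with 4 of 14 tested genes lower and 3 higher, where 2.65% of all tested genes were lower and 8.94% higher, and a median of -0.27. Calca (-5.02 ± 0.88), Insm1 (-3.18 ± 0.71) and Pcsk1, a prohormone convertase (-2.84 ± 0.94), were among the lower. Insm1 had a median of 0.888 CPM in F1 pools, 0.822 CPM in nude pools and 36.9 CPM in spheroids. Besides Stmn1, the enzymes Ddc (1.05 ± 0.29) and Uchl1, a neuronal deubiquitinase (0.88 ± 0.30), were higher, although their median levels in F1 and spheroid pools were close, 1166 and 1407 CPM for Ddc and 956 and 823 CPM for Uchl1. With the number of genes detected as a covariate these 2 changes were -0.04 for Ddc and -0.24 for Uchl1 and were not called. Without F1 pools 6, 7, 8, 22 and 23, 1 gene of this list rose and 3 fell.

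Of 12 tested mitochondrially encoded genes 3 were lower in F1 pools and none was higher. mt-Co3, of cytochrome oxidase, ran from 9795 through 18343 to 39671 CPM in spheroids and from 0.293 through 1132 to 9806 CPM in F1 pools, meeting only at the edge (log2 fold change -3.03 ± 0.37, adjusted p = 3.97e-08). Of all genes named here in any comparison, 44 were called for F1 against spheroid, and of these mt-Co3 alone stayed called in the same direction under each of its 19 alternatives. Of the nuclear respiratory genes 5 of 22 were higher and 4 lower, where 8.94% and 2.65% of all tested genes were. The median of this list was -0.05 against 0.46 over all genes. Its summed level had medians of 23766 CPM in spheroid and 15032 CPM in F1 pools. The largest rise in the list, Ndufv1 (2.32 ± 0.71), rests on F1 pool 1, which held 7089 CPM against 724 CPM in the next pool, and the other F1 pools averaged 162 CPM. No mitosis gene was called, 1 replication gene rose (Lig1, 2.06 ± 0.39) and 1 fell (Pcna, -1.58 ± 0.41). Krt8 (4.67 ± 0.89), Wfdc2 (1.60 ± 0.35) and Fn1 (3.72 ± 0.84) were higher, at adjusted p values from 0.000148 to 0.00144 in the edgeR test. Of the 24 F1 pools, 14, 8 and 4 lay above every spheroid pool for these genes, and 0, 1 and 1 below.

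**Figure D4:**
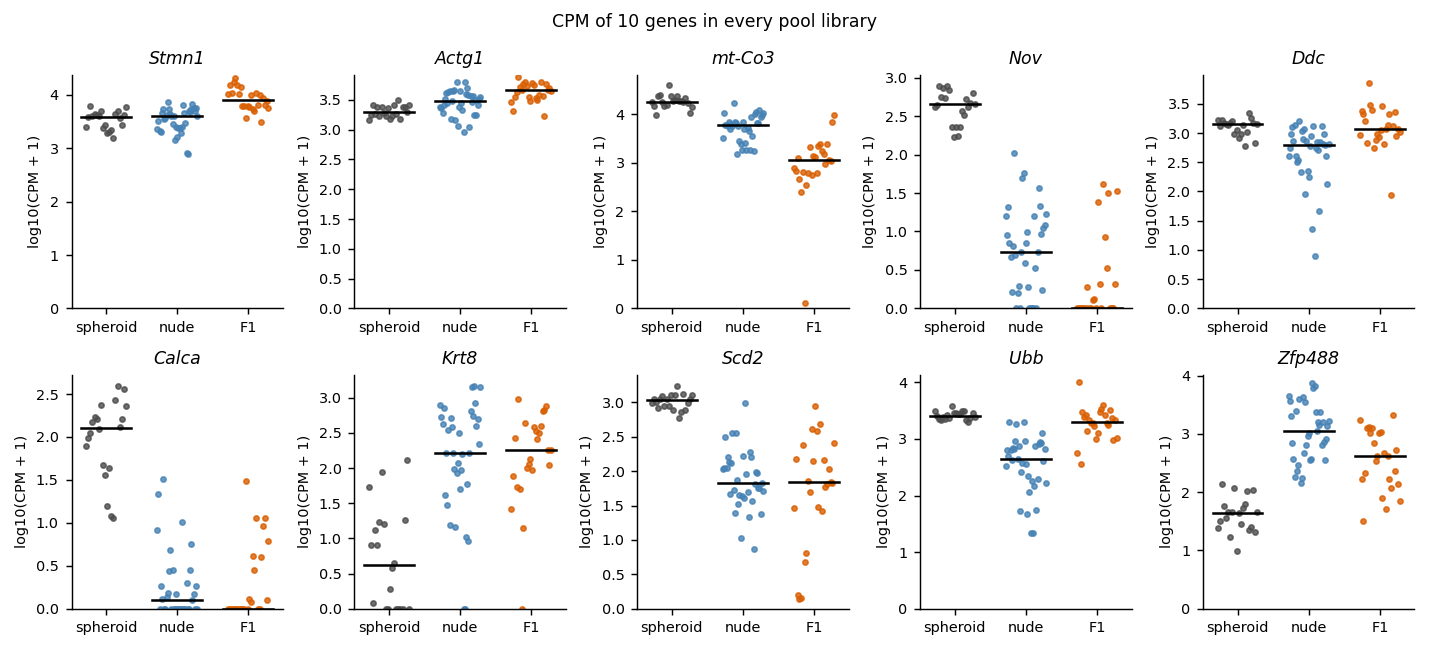
Points are single pool libraries and black bars medians, on a log10(CPM + 1) axis, for 10 genes in 20 spheroid, 35 nude liver and 24 F1 liver pools. Nov and Calca are near 0 in most colony pools, Ubb is lowest in nude pools (median 448 CPM) and near the spheroid level in F1 pools (2017 CPM), and mt-Co3 falls to a median of 1132 CPM in F1 pools.

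Between the livers, 721 of 6010 genes tested were called (12.0%), 493 higher and 228 lower in F1 pools, and no gene separated the groups without overlap (0 of 6010). The median log2 fold change was 0.24. Limma-voom gave 224 higher and 598 lower (median log2 fold change -0.35), and the replicate number as a block 67 higher and 112 lower (median log2 fold change -0.42.) The medians of the hepatocyte sum were 235 CPM in F1 and 1584 CPM in nude pools, and with the hepatocyte level as a covariate 281 genes were called. Without nude pools 21, 22 and 25 there were 617 calls, without F1 pools 1 to 5 and 21 there were 638, and without F1 pools 6, 7, 8, 22 and 23 there were 624.

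Of 21 ribosomal protein genes 8 were higher in F1 than in nude pools and 3 lower, where 8.20% of all tested genes were higher and 3.79% lower, and their median was 0.48 against 0.24 over all genes. Eef1a1, the elongation factor, ran from 420 through 2074 to 5206 CPM in nude pools and from 1309 through 5105 to 9630 CPM in F1 pools (log2 fold change 1.69 ± 0.17, adjusted p = 5.55e-11). Stmn1 rose from a median of 4062 to 8152 CPM (1.87 ± 0.21), Rps3, a ribosomal protein and DNA repair enzyme, from 1329 to 3344 CPM (1.80 ± 0.21), and H2afz from 1025 to 2361 CPM (1.59 ± 0.22). Ubb, a polyubiquitin gene, ran from 20.6 through 448 to 1995 CPM in nude pools and from 353 through 2017 to 9971 CPM in F1 pools (2.65 ± 0.36). Between 11 and 14 of the 24 F1 pools lay above every nude pool for each of these 5 genes, and the rest overlapped. Rpsa went the other way (-1.13 ± 0.15, adjusted p = 1.57e-07), as did Rps15 (-1.05 ± 0.16).

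Of 16 tested cytoskeleton genes 10 were higher in F1 than in nude pools and none lower, where 8.20% of all tested genes were higher, and their median was 1.09 against 0.24 over all genes. They included the tubulins Tubb5 (1.52 ± 0.22), Tuba1a (1.63 ± 0.30), Tuba1b (1.22 ± 0.21) and Tubb2a (3.68 ± 0.87). Over its 19 alternatives this count ran from 0 to 11, and no gene of the list was called lower. It was 0 with libraries summed by profile group, 4 and 7 with F1 pools of under 100 or under 200 CPM of Rpl19-ps11, 5 with the replicate number as a block, 6 after thinning to a common depth, 7 without the 5 F1 pools rich in Hbb-bs, and 8 to 11 under the others. Of 22 nuclear respiratory genes 9 were higher and none lower. Without F1 pools 1 to 5 and 21, 5 were higher and 1 lower, with the hepatocyte level as a covariate 1 and 0, with the number of genes detected as a covariate 1 and 1, and with the profile group sums none was called. Called were, among others, Ndufs5 (1.19 ± 0.24), Cox4i1 (1.17 ± 0.23) and Atp5b (0.99 ± 0.23). Of 12 mitochondrially encoded genes 5 were higher, led by mt-Nd2 (2.08 ± 0.53), and mt-Co3 was lower (-1.57 ± 0.34). Of 13 tested neuroendocrine genes 4 were higher and none lower, where 8.20% and 3.79% of all tested genes were. These were Chgb, chromogranin B (2.00 ± 0.60), Ddc (1.94 ± 0.33), Stmn1 and Uchl1 (1.69 ± 0.31). Chga was not called between the livers (0.20 ± 0.43, adjusted p = 0.803). In replication 4 of 20 genes were higher, Rrm1 (3.24 ± 0.65), Mcm2, Mcm4 and Mcm5, and in mitosis 2 of 16, Cdc20 (2.63 ± 0.71) and Birc5 (1.96 ± 0.54), beside 8.20% of all tested genes. Of these calls Mcm4 was kept under 7 of 18 alternatives, Mcm2 under 10 of 19, Chgb under 11 of 19 and Birc5 under 12 of 19.

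Pigr, the receptor that carries IgA into bile, ran from 0.524 through 63.5 to 486 CPM in nude pools and from 0 through 0.391 to 6.81 CPM in F1 pools. Haptoglobin had a median of 114 CPM in nude pools and of 0 in F1 pools, with F1 pool 13 at 64 CPM. Hemopexin and Apoc1 were the other hepatocyte genes called. Beside 3.79% lower and 8.20% higher over all tested genes, 3 of 10 tested hepatocyte genes were lower and none higher, and albumin was not called. These genes, Pigr among them, entered the test largely through the nude pools, where they are high, so their calls support nothing. The 8 genes of the bile duct list summed to medians of 13.4 CPM in nude and 25.6 CPM in F1 pools, with highest values of 382 and 503 CPM, a difference that was not tested. Cygb, the cytoglobin of hepatic stellate cells, was found in 32 nude and 7 F1 pools. The whole stellate and fibroblast list of 14 genes summed to similar medians, 222 CPM in nude and 209 CPM in F1 pools, and its member Acta2, smooth muscle actin, reached 59.9 CPM in nude and 256 CPM in F1 pools. Hbb-bt, a second beta-globin, was higher in F1 pools (3.72 ± 1.04), but without F1 pools 6, 7, 8, 22 and 23 its change was -0.39. In that fit 3 erythrocyte genes were lower, where 213 of all 6381 tested genes were. Of the class I genes H2-D1 was higher (2.59 ± 0.78, a call kept under 11 of 18 alternatives) and the peptide-loading chaperone Calr lower (-1.48 ± 0.34).

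These comparisons depended on how the libraries were treated. When libraries were summed into 3 profile groups per environment, a choice made after seeing the data, 93 genes were called between nude liver and spheroid, 1 (mt-Co3) between F1 liver and spheroid and 0 between the livers by edgeR, where 643 had an unadjusted p under 0.05. With limma-voom on the same genes 4778, 3339 and 822 were called and 26.9%, 11.8% and 27.3% of them were higher, against 64.4%, 77.1% and 68.4% with edgeR.

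The same environments were also sampled as separate 10-cell captures, 28 from spheroids, 33 from nude and 31 from F1 livers, which share no library with the pools. In captures 2669 of 7834 genes (34.1%), 924 of 7309 (12.6%) and 1358 of 7064 (19.2%) were called between nude and spheroid, F1 and spheroid, and F1 and nude. Of the pool calls, 61.5%, 34.8% and 42.3% were also called in captures, which made up 47.4%, 31.6% and 22.5% of the capture calls. Of the 1264 genes called in both for nude against spheroid, 1261 had the same direction, and for the other 2 comparisons the counts were 288 of 292 and 296 of 305. Of all pool calls that were tested in captures, called there or not, 1730 of 1811, 646 of 739 and 573 of 680 had the same sign. Across all genes tested in both, which are not independent replicates, the log2 fold changes had Spearman correlations of 0.686, 0.381 and 0.404 over 7463, 6809 and 5776 genes. The captures gave Rpsa a log2 fold change of 3.06 in nude liver and 1.88 in F1 liver, Nov -4.25 in nude liver, Stmn1 1.54 in F1 liver against spheroid and Ubb 2.31 between the livers.

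In captures the lists gave these counts. Mitochondrially encoded genes fell in 11 of 12 cases in nude captures and 9 of 12 in F1 captures against spheroids, and 10 of 15 neuroendocrine genes fell in nude captures. Over all genes tested in captures, 16.3% fell and 17.7% rose in nude liver against spheroids, and 4.91% fell and 7.73% rose in F1 liver. Cytoskeleton genes were higher in F1 than nude captures in 11 of 17 cases, with 1 lower, where 11.2% of all tested genes were higher and 7.98% lower. The size of the environment difference itself differed between pools and captures for 203 of 10471 genes in nude against spheroid (1.94%), 405 of 9976 in F1 against spheroid (4.06%) and 500 of 9479 in F1 against nude (5.27%; edgeR interaction term). Alpha-globins were among them: their excess in nude liver over spheroid was larger in pools by 5.55 ± 1.06 for Hba-a1 and 5.27 ± 0.99 for Hba-a2, on the log2 scale. For both, nude captures averaged 319 and 312 CPM and nude pools 597 and 718 CPM. Spheroid captures averaged 0.679 and 0.437 CPM and spheroid pools held none, so the fitted size in pools depends on the zeros.

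**Figure D5:**
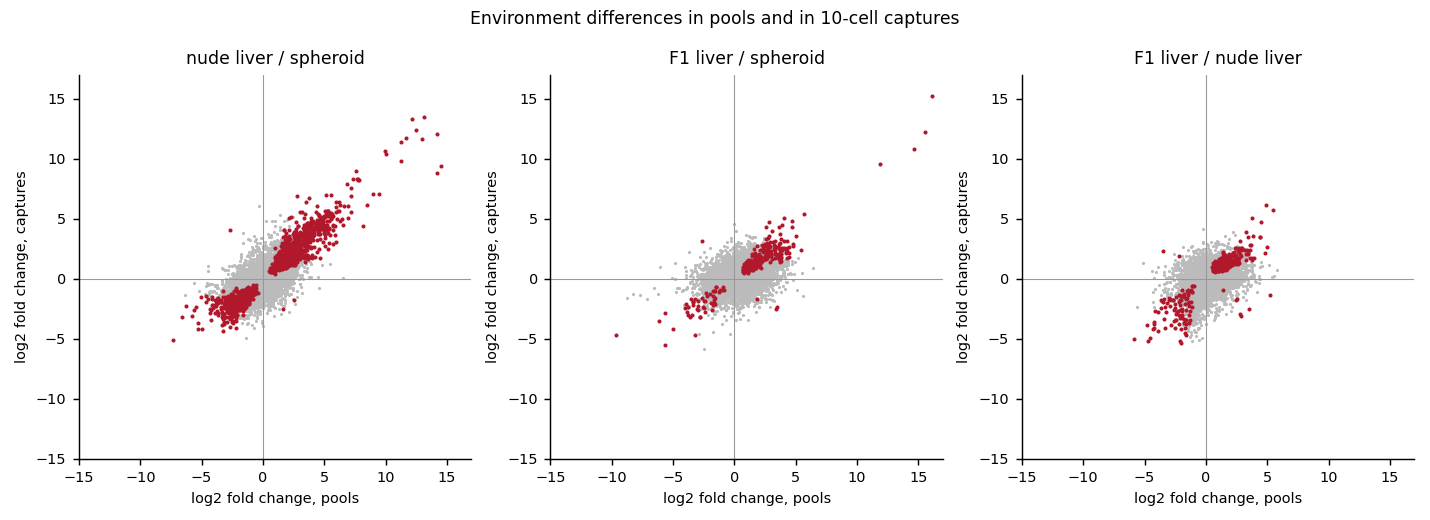
Each point is 1 gene tested in both kinds of library, at its log2 fold change in pools (x) and in 10-cell captures (y) on linear axes; red points passed an adjusted p of 0.05 in both. The 1264, 292 and 305 red points lie almost entirely at the lower left and upper right, where both kinds of library have the same direction.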

How the data were processed

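RNA was measured by sequencing in 79 KP1 pool-and-split libraries, with 92 KP1 10-cell captures for comparison. Per the labels' protocols, samples were cryosectioned at 8 µm, cells were taken by laser capture microdissection, poly(A) RNA was reverse transcribed and amplified by poly(A) PCR, and libraries were tagmented with Nextera XT. The authors deposited expected counts, estimated reads per gene with no scaling. The submitters' processing notes name RSEM and Bowtie2 and the builds GRCm38 and GRCh38.p12, with no roles given. RSEM divides reads that match several genes, so 62.0% of non-zero pool values were whole, and paralogs and pseudogene parents are uncertain. PCR amplification without molecular identifiers means that read counts are not molecule counts.

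Counts of 31581 genes were rounded, with 92 ERCC rows left out of library sizes and tests. CPM was computed over genes. Pairs of environments were fitted with edgeR 4.0.16 (TMM, filterByExpr, robust quasi-likelihood test, only the 2 groups compared) in R 4.3.3, and a gene was called at an adjusted p (Benjamini-Hochberg) below 0.05. Fold changes are log2 with their standard error. The difference between pools and captures was an interaction term over 4 groups. Library measures were compared by permutation with scipy, after thinning to 956718 gene counts where genes were counted. Each step was tested on simulated data.

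Genes were named by a rule: in each direction the 8 protein-coding genes with the smallest adjusted p, an absolute log2 change of 1 or more and a mean of 10 CPM or more in the higher group, up to 4 called members of each of 26 lists, markers of host cells, and 4 genes for the interaction. Some of these genes are not reported here by name. The groups, lists and rules were chosen with earlier results of these data known. Alternatives were other scalings and filters, DESeq2 1.42.0, limma-voom 3.58.1, a joint fit, the replicate number as a block, covariates, thinning, and subsets of libraries. Same-numbered pools did not vary together: the median correlation of their deviations across genes was -0.0049, -0.0071 and 0.0042 in the 3 comparisons, and 1 pair exceeded 0.1. No 2 pools agreed within sampling noise, and no column was left out. Counting intervals are not given, since amplified reads are not independent.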

Additional observations from a re-analysis of the deposited data

Results flagged for a closer look

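These genes had the smallest adjusted p in each direction for the interaction, that is, the difference between 2 environments itself differed between pools and 10-cell captures (edgeR quasi-likelihood interaction term, 4 genes per direction and comparison; values are the pool log2 fold change minus the capture log2 fold change).

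For nude liver against spheroid the difference was larger in pools by 6.49 for Cdk6, a cyclin-dependent kinase of G1 phase, by 9.09 for Traf3ip1, a ciliary transport protein, by 5.27 for Hba-a2 and by 5.55 for Hba-a1. Cdk6 averaged 21.3 CPM in nude pools and 0.214 CPM in spheroid pools, and 13.4 and 14.6 CPM in the captures. Traf3ip1 was found in 6 of 35 nude pools, and pool 21 held 55.0% of its summed CPM. In the other direction stood Pus10 (-6.58), Usp46 (-6.99), Snapin (-7.73) and Lca5 (-8.00). Usp46, a deubiquitinase, averaged 2.09 CPM in nude pools and 142 CPM in nude captures.

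For F1 liver against spheroid the difference was larger in pools by 6.63 for Snap23, a membrane fusion protein, by 9.35 for Cdk6, by 6.07 for Ocrl, an inositol phosphatase, and by 5.92 for Scyl3. F1 pool 2 held 77.0% of the summed CPM of Snap23, F1 pool 3 held 86.5% of that of Ocrl, and F1 pool 1 held 75.4% of that of Scyl3. It was lower in pools for Tmem184c (-6.94), Zfp433 (-8.21), Golga1 (-7.02) and Smim8 (-6.32). Golga1, a Golgi protein, averaged 0.577 CPM in F1 pools and 34.2 CPM in F1 captures.

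For F1 against nude liver the difference was larger in pools by 6.21 for Snap23, 8.79 for Itpr2, a calcium channel of the endoplasmic reticulum, 9.54 for Fam69b and 9.78 for Tmem108. Of the summed F1 pool CPM, pool 1 held 91.0% for Itpr2, pool 25 held 80.8% for Fam69b and pool 4 held 92.0% for Tmem108. It was lower in pools for Fbp1 (-10.45), Myo6 (-7.86), Ifnar2 (-9.21) and Ing3 (-7.75). Fbp1, an enzyme of gluconeogenesis, was found in 2 of 24 F1 pools and 12 of 35 nude pools. Nude pool 27 held 70.0% of the summed CPM of Myo6 and nude pool 21 held 60.8% of that of Ifnar2, a subunit of the type I interferon receptor. What part single libraries play in these differences was not tested.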

How the results depend on the processing

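Gene counts called between pools moved with the settings. For nude liver against spheroid (2054 called), no filter on low counts gave 7888, DESeq2 4535, limma-voom 4778, the number of genes detected as a covariate 1083, spheroid pools with at least 0.1% ERCC counts 776, and sums over profile groups 93. For F1 liver against spheroid (840), these gave 5224, 3095, 3339, 241, 22 and 1, a mean of at least 10 CPM gave 1482, a fit of all 3 pool groups 1353, and F1 pools with under 200 or under 100 CPM of the pseudogene Rpl19-ps11 1734 and 1890. For F1 against nude liver (721), no filter gave 5857, a mean of at least 10 CPM 1693, DESeq2 1887, the fit of all 3 groups 1493, genes detected as a covariate 466, F1 pools with under 200 or under 100 CPM of Rpl19-ps11 372 and 295, the hepatocyte level as a covariate 281, and sums over profile groups 0 (643 at an unadjusted p under 0.05 in edgeR). The causes were not tested.

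The replicate number as a block gave 2927, 1837 and 179 calls, with 898, 219 and 67 of them higher. Pools share only a number, so this is no paired test. Genes whose difference differed between pools and captures numbered 330 with a mean of at least 10 CPM for nude liver against spheroid (203), 154 with limma-voom for F1 liver against spheroid (405), and 1065 and 1 with these settings for F1 against nude liver (500).

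The mitochondrially encoded share differed between the livers by 0.107 percentage points, in the other direction, with only F1 pools of at least 200 CPM of Rpl19-ps11. The share of the 50 most abundant genes changed by 0.0975 points for nude liver and by -1.37 points for F1 liver against spheroid pools with at least 0.1% ERCC counts, where neither excess passed the test, and by 0.25 points between the livers with those F1 pools. With those spheroid pools Ndufa2 changed by -0.0284 in nude liver. For F1 liver against spheroid, the genes-detected covariate gave Cox4i1 -0.43, Ddc -0.036, Uchl1 -0.24 and Ndufv1 -0.45, and limma-voom and the block gave Ndufv1 -0.44 and -0.0865. Without the F1 pools richest in Hbb-bs, Hbb-bt changed by -0.39 between the livers. With only F1 pools under 100 CPM of Rpl19-ps11, a choice on that gene itself, Rpl19-ps11 changed by -0.0617 against spheroids and -0.339 against nude liver. Of the genes named anywhere in the report, 73, 44 and 41 were called for nude against spheroid, F1 against spheroid and F1 against nude, and 20, 1 and 0 of these stayed called in the same direction under every alternative that tested them. No alternative left out single libraries, and the depth of 956718 gene counts in the shallowest pool limits what rare transcripts can show.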

Other observations

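Among pools, some transcripts of the host lists were found in 1 liver environment and not in the other. Spp1, osteopontin, a secreted protein of bile duct cells and macrophages, was found in 15 of 24 F1 pools, with a median of 4.3 CPM and a highest value of 473 CPM. It was found in no nude pool and in 1 spheroid pool, and spheroid captures also held counts of it. Whether it came from host or tumour cells was not tested. Over all F1 pools Spp1 was 2937-fold above the floor of 3 counts over all nude pools. Folds on this floor are likewise not strict lower bounds. Mup20, a major urinary protein made by hepatocytes of male mice, was found in 11 of 24 F1 pools, with a highest value of 133 CPM, and in no nude or spheroid pool. It was 392-fold above the same nude floor. Neither gene passed the filter on low counts, so neither was tested.

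Some genes of the stellate and endothelial lists were present in all 3 environments. Des, desmin of stellate and muscle cells, had medians of 42.5, 169 and 56 CPM in spheroid, nude and F1 pools (log2 fold changes against spheroid 2.18 ± 0.48 and 2.19 ± 0.68, both called by edgeR). Vwf, von Willebrand factor of endothelium, was found in every library of all 3 environments, at medians of 3.83, 30.9 and 14.1 CPM. The endothelial list of 14 genes summed to medians of 6.94, 49.4 and 24.4 CPM in spheroid, nude and F1 pools. Of its genes, Cdh5, Lyve1 and Ramp2 had no count in nude pools, and Lyve1, Clec4g, Esam and Plvap none in F1 pools. Ctsd, a lysosomal protease that many cells use, was the only gene of the macrophage list called in nude pools (2.32 ± 0.45).

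A group of predicted genes was higher in nude pools than in any spheroid pool. Gm10800 ran from 0 through 0.587 to 24.5 CPM in spheroids and from 44.8 through 355 to 2374 CPM in nude pools, and it had a median of 5.56 CPM in F1 pools (log2 fold change -4.76 ± 0.69 between the livers). Gm10801, Gm10717, Gm10718 and Gm10719 had the same pattern, with nude medians of 35.5, 21.4, 109 and 125 CPM and no overlap with spheroids. These names were chosen after their values were seen, and how reads were divided among such near-identical loci is not known.

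Single libraries carried much of the signal of many genes in liver pools. Among genes that averaged 10 CPM or more, 1 library held over 50% of the summed CPM for 216 of 7232 genes in spheroid pools (2.99%), 1388 of 7355 in nude pools (18.9%) and 2189 of 6877 in F1 pools (31.8%). In 10-cell captures this share was 2.88%, 8.62% and 8.53%. The numbers of libraries differ, and a group with fewer libraries reaches 50% more easily. Pools against captures numbered 20 against 28 for spheroids, 35 against 33 for nude and 24 against 31 for F1 livers. In nude livers the pools, the larger group, had the larger share. For the coefficient of variation, 3001 genes were kept that averaged at least 50 CPM over the 3 pool groups. On these genes edgeR estimated it at 83.9%, 149% and 176% in spheroid, nude and F1 pools, and 98.2%, 116% and 126% in the captures. Since the genes were chosen by pool levels alone, a gene high in a single pool library could enter. The values therefore do not decide whether pools or captures vary more. These differences were not tested.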
